A study of Mus musculus with 74 samples.

Results

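The adult ileum villus comparison rests on 4 of the 74 samples of a mouse gut endoderm series, which holds 31 RNA-seq libraries. The members are the 2 count columns of ileum labelled Cdx2-/- and the 2 of WT ileum, taken by their names after the adult columns had been put back in register with the gene names. Its RNA libraries follow epithelium of the embryonic stomach and intestine between E12 and E18, and some of them are labelled as Cdx2 knockouts. Its chromatin libraries were not analysed here. All 4 adult libraries came from mice of a B6;129 mixed background that carried floxed Cdx2 alleles (Cdx2f/f). The WT mice had no Cre and received sunflower oil, while those labelled Cdx2-/- carried Villin-Cre and received 1 mg of tamoxifen i.p., both on 5 days in a row, and tissue was taken 3 days after the last injection. Villin-Cre is expressed in the gut epithelium, and the Cre used here acts once tamoxifen is given. Villi of the distal small intestine were released with EDTA, so the libraries hold villus epithelium with whatever cells came off with it. Cre, tamoxifen and the labelled deletion differ together between the groups and cannot be told apart. The labels do not give the animals' ages, nor whether replicates were separate animals, so p-values measure the spread between these libraries.

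Cdx2 is a homeobox factor found in nuclei of intestinal epithelium and known for holding intestinal against gastric identity. The villus epithelium is mostly absorptive enterocytes, whose apical brush border carries enzymes and transporters that finish digestion and take up the products. The ileum, the last part of the small intestine, takes up bile acids and cobalamin. Goblet, Paneth, enteroendocrine and tuft cells are its secretory and sensory cells, and stem cells sit in the crypts between villi.

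Cdx2 was read first, since it checks the labels. CPM are counts after TMM scaling of each library to a total of 1000000, and a log2 fold change is that of the libraries labelled Cdx2-/- over WT. A value after ± is the standard error of the fold change, its size divided by the square root of the edgeR F statistic. That statistic draws on the spread of all genes, so ± is not the observed spread of 2 libraries a group. A gene was called at an edgeR adjusted p below 0.05 and a log2 fold change of at least 1 in either direction. Cdx2 stood at 242 and 248 CPM in WT and 472 and 462 CPM in the libraries labelled Cdx2-/- (log2 fold change 0.93 ± 0.12, edgeR adjusted p 0.00731). Both libraries labelled Cdx2-/- were above both WT libraries, against the direction of the label, and the gene stayed under the fold minimum used for calls, which it passed at 1.06 with all 31 RNA libraries in 1 fit. Counts summed over a gene do not tell if an exon is missing, and every direction below is that of libraries so labelled. Cdx1, the close homolog of Cdx2, stood at 139.7 and 134 CPM in WT and 153 and 159 CPM in the libraries labelled Cdx2-/- and was not called (log2 fold change 0.19 ± 0.11, edgeR adjusted p 0.229). Epithelial identity was marked by Epcam at 2033 and 2169.9 CPM in WT and 1354 and 1721 CPM in the libraries labelled Cdx2-/- and by Cdh1, or E-cadherin, at 886 and 987 CPM in WT against 1172 and 1406 CPM. Neither was called (log2 fold changes -0.45 and 0.46). Of the 10 epithelial identity markers, 2 were called higher (Krt19 among them) and 1 lower, villin, where 8.41% and 12% of all genes tested were.

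Total counts were 16222975 and 17219163 in WT and 23164522 and 14788004 in the libraries labelled Cdx2-/-. Replicates differed by far more than counting noise, with a chi-square per degree of freedom of 55.4 between the WT libraries and 78.0 between the others, and their Spearman correlations across genes were 0.982 and 0.985. The WT libraries stood apart from each other in genes of several kinds. Lct was at 2294 and 292 CPM, the xenobiotic P450 gene Cyp3a11 at 549 and 9.52 CPM, and the MHC class II gene H2-Aa at 279 and 1188 CPM in WT replicates 1 and 2. Xist was present in the 4 libraries, and the Y-linked genes Ddx3y, Eif2s3y, Kdm5d and Uty held 1 count at most in each.

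Of 12444 genes tested, 2544 (20.4%) were called. In the libraries labelled Cdx2-/-, 1047 (8.41%) were higher and 1497 (12%) lower. Over all tested genes the median log2 fold change was 0.0059. With all 31 RNA libraries in 1 fit, 1374 were higher and 1335 lower, and which direction held more genes changed with the libraries fitted. Each library was also left out in turn, and below, a call that this ended, or a fold change that it moved by over 1.5 times, is given with its gene, except for folds that are bounds or counting ratios. Without replicate 1 labelled Cdx2-/-, 1254 genes were called, and without replicate 2, 1562. The group left with 1 library is then assumed to vary like the other. Calls over all genes fell in each fit with a library left out, so a fall in a list count below need not be particular to that list.

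**Figure D1:**
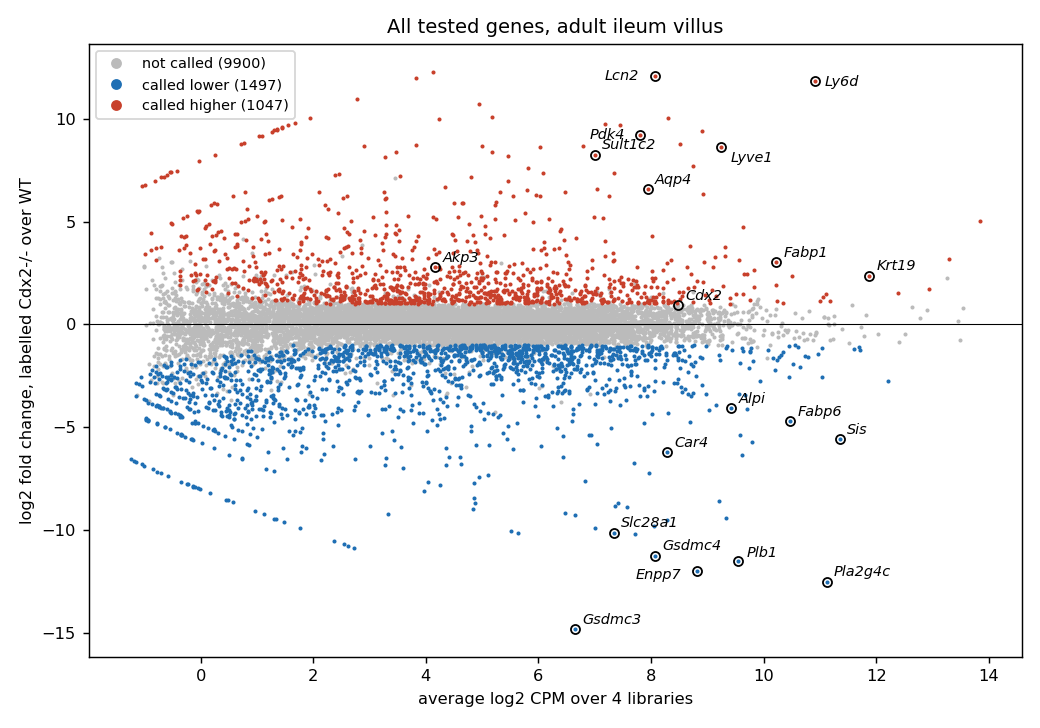
Log2 fold change of the libraries labelled Cdx2-/- over WT (y axis) against the average log2 CPM over the 4 adult libraries (x axis) for the 12444 genes tested, with 1047 called higher in red, 1497 called lower in blue and the rest in grey. Cdx2 lies just under the fold minimum, while Gsdmc3, Pla2g4c and Enpp7 lie at the lower edge and Lcn2 and Ly6d at the upper one.

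Of 19 brush border hydrolases tested, 14 were called lower and 1 higher, where 12% and 8.41% of all genes were. In bulk libraries, fewer cells of a type and less RNA per cell cannot be told apart. Their median log2 fold change was -2.93, against 0.0059 over all genes. Enpp7, the alkaline sphingomyelinase of the brush border, stood at 1068 and 741 CPM in WT and 0.166 and 0.285 CPM in the libraries labelled Cdx2-/- (log2 fold change -12.02 ± 0.40, edgeR adjusted p 0.000718). Sis, which encodes sucrase-isomaltase, stood at 5686 and 4591 CPM in WT and 81.3 and 133 CPM in the libraries labelled Cdx2-/- (log2 fold change -5.59 ± 0.36, edgeR adjusted p 0.00218). Lct, or lactase, stood at 2294 and 292 CPM in WT and 1.16 and 2.85 CPM in the libraries labelled Cdx2-/- (log2 fold change -9.40 ± 1.41, edgeR adjusted p 0.0112). The groups did not overlap for any of these genes, and Lct had the widest spread in WT. Mme, which encodes the peptidase neprilysin, had 503 and 401 CPM in WT against 16.4 and 15.7 CPM (log2 fold change -4.81 ± 0.18, edgeR adjusted p 0.000733). Mep1a, or meprin alpha, had 1886 and 1259 CPM in WT against 61.4 and 118 CPM (log2 fold change -4.13 ± 0.43). Treh, or trehalase, and Xpnpep2, an aminopeptidase, fell with log2 fold changes of -4.69 and -3.93. Lct (log2 fold change -8.79 and -10.11) lost its call without either replicate labelled Cdx2-/-. Treh (-4.34) lost its call without replicate 1 labelled Cdx2-/-. Lct had a log2 fold change of -7.26 without WT replicate 1 and -10.24 without WT replicate 2, and Treh of -3.94 without WT replicate 1.

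The alkaline phosphatases moved in opposite directions. Alpi, the main intestinal enzyme, stood at 1319.8 and 1281 CPM in WT and 72.3 and 80.2 CPM in the libraries labelled Cdx2-/- (log2 fold change -4.09 ± 0.15, edgeR adjusted p 0.000733). Akp3, the duodenal form, stood at 4.94 and 4.08 CPM in WT and 48.9 and 12.8 CPM in the libraries labelled Cdx2-/- (log2 fold change 2.79 ± 0.68, edgeR adjusted p 0.0359), and was the member called higher. Both groups were apart for either gene, though Akp3 differed between replicates of the libraries labelled Cdx2-/-. The genes are close paralogs, and how reads matching both were counted is not given in the sources used here. Not every hydrolase was called. Mgam, or maltase-glucoamylase, stood at 4369 and 3258 CPM in WT and 1733 and 2381 CPM in the libraries labelled Cdx2-/-, and Anpep, or aminopeptidase N, at 15346 and 13653 CPM in WT and 7833 and 9278 CPM in the libraries labelled Cdx2-/-. Their log2 fold changes were -0.89 and -0.76, and that of the meprin subunit gene Mep1b was -0.67. In these 3 genes each library labelled Cdx2-/- was below both WT libraries. Akp3 (log2 fold change 1.54, 2.93 and 2.65) lost its call without either WT replicate or replicate 1 labelled Cdx2-/-. Akp3 had a log2 fold change of 3.45 without replicate 2 labelled Cdx2-/-.

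Promoter windows of some of the genes that fell are shown because Cdx2 is known to bind an AT-rich element in intestinal promoters. Sequences are from RefSeq on build GRCm38.p6, run from 250 bases before to 50 bases after the annotated start, and are given 5′ to 3′ along the gene. Capitals mark each match to CNATAAA on either strand.
Sis (chr3:72967814-72968113, minus strand): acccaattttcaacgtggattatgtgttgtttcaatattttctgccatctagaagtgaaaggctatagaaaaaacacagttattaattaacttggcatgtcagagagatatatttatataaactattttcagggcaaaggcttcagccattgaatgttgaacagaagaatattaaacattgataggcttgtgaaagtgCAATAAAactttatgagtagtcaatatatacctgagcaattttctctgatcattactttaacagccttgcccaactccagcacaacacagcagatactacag
Alpi (chr1:87101557-87101856, minus strand): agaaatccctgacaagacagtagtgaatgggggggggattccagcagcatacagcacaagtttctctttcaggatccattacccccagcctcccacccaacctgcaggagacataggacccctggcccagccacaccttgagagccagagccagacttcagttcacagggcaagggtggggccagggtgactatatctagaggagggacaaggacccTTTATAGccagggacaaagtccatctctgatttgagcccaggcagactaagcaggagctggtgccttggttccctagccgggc
Slc10a2 (chr8:5105238-5105537, minus strand): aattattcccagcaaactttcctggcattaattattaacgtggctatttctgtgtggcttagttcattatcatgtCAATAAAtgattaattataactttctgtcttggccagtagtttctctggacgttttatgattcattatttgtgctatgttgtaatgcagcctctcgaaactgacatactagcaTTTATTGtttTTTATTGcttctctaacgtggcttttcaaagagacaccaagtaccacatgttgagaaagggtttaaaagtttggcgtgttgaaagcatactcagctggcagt
Enpp7 (chr11:118987931-118988230, plus strand): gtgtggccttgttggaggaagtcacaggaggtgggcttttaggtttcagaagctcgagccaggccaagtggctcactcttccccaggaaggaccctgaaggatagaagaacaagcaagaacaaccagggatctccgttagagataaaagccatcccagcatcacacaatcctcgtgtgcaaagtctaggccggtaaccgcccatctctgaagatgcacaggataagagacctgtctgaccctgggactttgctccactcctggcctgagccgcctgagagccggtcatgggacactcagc
The Sis window held 1 match, which begins 52 bases before the start. Slc10a2, the ileal bile acid transporter gene, held 3, beginning 175, 62 and 52 bases before the start, and Alpi held 1 at 33 bases before it. Enpp7 held none. Of the 17 genes that fell among the core genes and the largest changes, 15 had a window and 5 held a match. Over all windows of the table, 10.9% of 32851 held one. The share was 7.43% of 1454 windows of genes called lower, 8.15% of 1006 windows of genes called higher and 6.74% of 9550 windows of genes tested and not called. A match is a description of these letters and not a binding site, and its absence says nothing of binding.

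Of 20 tested genes for microvillus scaffolds, bundlers, motors and cadherins, 13 were called lower and 1 higher (12% and 8.41% of all genes), with a median of -1.18. Pdzk1, a scaffold under the apical membrane, stood at 591 and 398 CPM in WT and 3.27 and 3.28 CPM in the libraries labelled Cdx2-/- (log2 fold change -7.23 ± 0.29, edgeR adjusted p 0.00087). Tmigd1, an adhesion protein of the brush border, stood at 369 and 455 CPM in WT and 3.85 and 3.71 CPM in the libraries labelled Cdx2-/- (log2 fold change -6.76 ± 0.19, edgeR adjusted p 0.000604). Those were the largest changes of the list. Espn, an actin bundler, had a log2 fold change of -2.23, the motor gene Myo1a of -1.14 and Slc9a3r1, another scaffold, of -1.92. Vil1, or villin, stood at 4373 and 4649 CPM in WT and 1969.5 and 2282 CPM in the libraries labelled Cdx2-/- (log2 fold change -1.09 ± 0.18, edgeR adjusted p 0.0150). Cdhr2, a cadherin that links microvilli, had a value of -1.43. Baiap2l1, which bends membrane, was the member called higher at 112 and 93.6 CPM in WT against 282 and 272 CPM. Cdh17, a cadherin of the lateral membrane, was not called (log2 fold change -0.75 ± 0.16, edgeR adjusted p 0.0252), nor was Ezr, or ezrin (0.30). Microvillus genes called lower numbered 7 without replicate 1 labelled Cdx2-/-. Myo1a (log2 fold change -1.08 and -1.02) lost its call without replicate 1 labelled Cdx2-/- or with all 31 RNA libraries in 1 fit. Vil1 (-0.95, -1.05 and -0.96) lost its call without replicate 1 labelled Cdx2-/- or WT replicate 2 or with all 31 RNA libraries in 1 fit. Cdhr2 (-1.22) lost its call without replicate 1 labelled Cdx2-/-.

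Uptake of bile acids and cobalamin is the work of the ileum. Of 12 genes for it that were tested, 6 were called lower and 1 higher (12% and 8.41% of all genes), with a median of -1.25. Fabp6, the ileal bile acid binding protein, stood at 2658 and 2806 CPM in WT and 57.5 and 150.2 CPM in the libraries labelled Cdx2-/- (log2 fold change -4.72 ± 0.54, edgeR adjusted p 0.00591). Cubn, which with Amn forms the receptor for cobalamin bound to intrinsic factor, stood at 1717 and 1285 CPM in WT and 28.1 and 43.7 CPM in the libraries labelled Cdx2-/- (log2 fold change -5.39 ± 0.33, edgeR adjusted p 0.00194). Groups were far apart for both genes. Amn and the cobalamin carrier gene Tcn2 had log2 fold changes of -2.70 and -1.93. Slc10a2 stood at 129.6 and 131 CPM in WT and 42.6 and 78.2 CPM in the libraries labelled Cdx2-/- (log2 fold change -1.11 ± 0.30, edgeR adjusted p 0.0461). Abcc3, a basolateral exporter, was the member called higher, at 95.2 and 148 CPM in WT against 478 and 530.4 CPM (log2 fold change 2.05 ± 0.25). Fgf15, the hormone that ileal bile acids induce, varied within both groups at 32.4 and 144 CPM in WT against 54.3 and 12.6 CPM and was not called (log2 fold change -1.39 ± 0.95, edgeR adjusted p 0.304). Slc10a2 (log2 fold change -0.71, -1.12, -1.11, -1.11 and -0.99) lost its call without either WT replicate or replicate 1 labelled Cdx2-/- or with RLE scaling or with all 31 RNA libraries in 1 fit. Fabp6 had a log2 fold change of -5.56 without replicate 2 labelled Cdx2-/-.

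**Figure D2:**
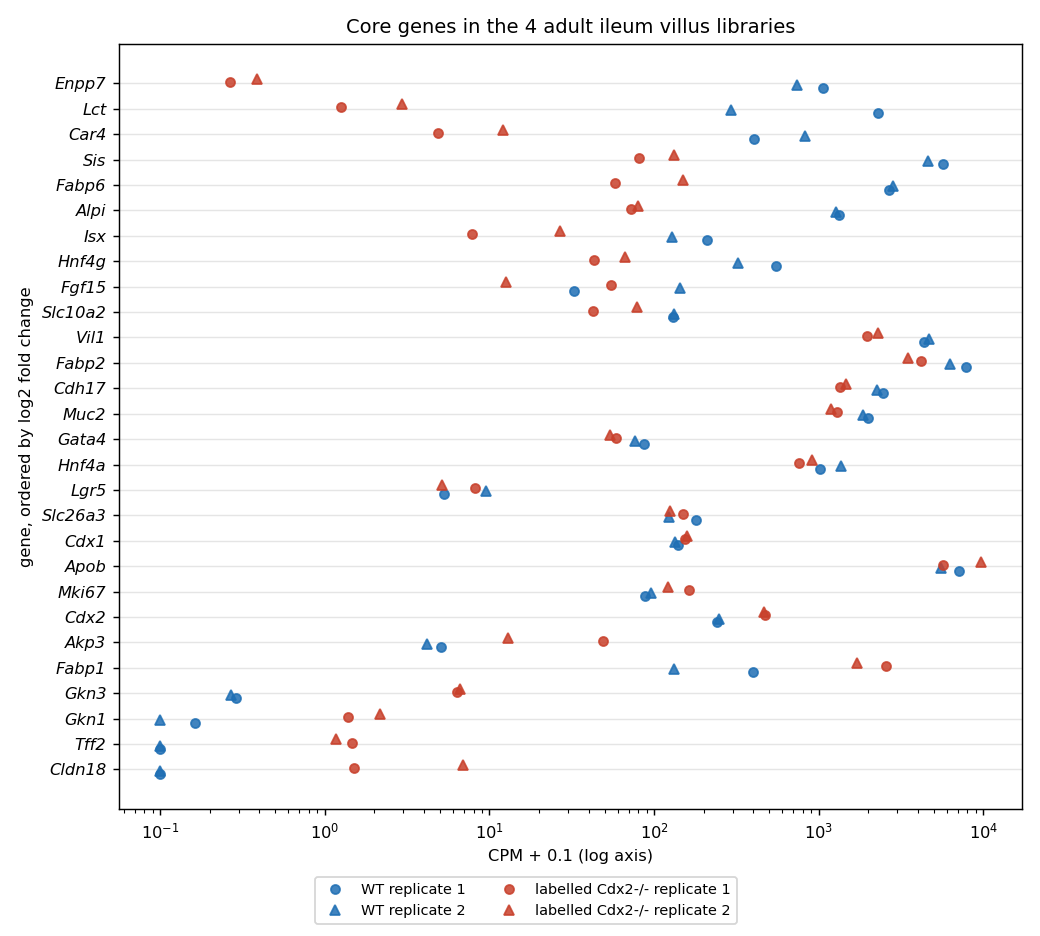
CPM plus 0.1 (x axis, log scale) of the 28 core genes tested, in order of log2 fold change (y axis), in the 4 adult libraries. Blue is WT and red the libraries labelled Cdx2-/-, with circles for replicate 1 and triangles for replicate 2, and Enpp7, Lct and Car4, with the most negative log2 fold changes, stand at the top.

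Among 24 sugar, amino acid, peptide and vitamin transporters, 11 were called lower and 2 higher (12% and 8.41% of all genes), with a median of -1.11. Slc28a1, a nucleoside transporter, stood at 303 and 344 CPM in WT and 0.414 and 0.0713 CPM in the libraries labelled Cdx2-/- (log2 fold change -10.13 ± 0.45, edgeR adjusted p 0.000984). The amino acid carriers Slc36a1, Slc1a1 and Slc6a20a had log2 fold changes of -3.88, -3.37 and -3.02. The main carriers for peptides and glucose fell less. Slc15a1, the peptide transporter, had a log2 fold change of -1.88, and Slc5a1, the sodium-glucose transporter, stood at 5068 and 4357 CPM in WT and 1741 and 2259 CPM in the libraries labelled Cdx2-/- (log2 fold change -1.24 ± 0.22, edgeR adjusted p 0.0168). The members called higher were Slc2a1, a glucose carrier, and Slc22a5, which carries carnitine (log2 fold changes 1.87 and 1.53). Slc2a5, the fructose carrier, overlapped between groups, at 243 and 229 CPM in WT against 24.9 and 237 CPM, and was not called. Transporters called lower numbered 7 without replicate 1 labelled Cdx2-/-. Slc15a1 (log2 fold change -1.77) lost its call without replicate 1 labelled Cdx2-/-. Slc5a1 (-1.03, -1.12 and -1.11) lost its call without replicate 1 labelled Cdx2-/- or WT replicate 1 or with all 31 RNA libraries in 1 fit. Slc2a1 (1.91 and 1.89) lost its call without either replicate labelled Cdx2-/-. Slc28a1 had a log2 fold change of -11.96 without replicate 1 labelled Cdx2-/-, and Slc36a1 of -3.26 without WT replicate 1. Slc2a1 had a log2 fold change of 2.75 without WT replicate 2.

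Of 28 genes of lipid absorption tested, 9 were called lower and 6 higher (12% and 8.41% of all genes), with a median of -0.59. Plb1, the brush border phospholipase B, stood at 2495 and 490.3 CPM in WT and 0.331 and 0.785 CPM in the libraries labelled Cdx2-/- (log2 fold change -11.49 ± 1.26, edgeR adjusted p 0.00556), and Cd36, a fatty acid receptor, at 49.7 and 16.5 CPM in WT against 1.53 and 0.999 CPM (log2 fold change -4.66 ± 0.67, edgeR adjusted p 0.0102). Scarb1, a receptor for lipoprotein lipids, went the other way, at 1.13 and 1.30 CPM in WT and 82.4 and 102 CPM in the libraries labelled Cdx2-/- (log2 fold change 6.23 ± 0.21, edgeR adjusted p 0.000718). Fabp1, the liver-type fatty acid binding protein, also rose and stood at 397 and 132 CPM in WT and 2552 and 1709 CPM in the libraries labelled Cdx2-/- (log2 fold change 3.01 ± 0.59, edgeR adjusted p 0.0215). Fabp2, the intestinal type, stood at 7843 and 6269.7 CPM in WT and 4195 and 3464 CPM in the libraries labelled Cdx2-/- and was not called (log2 fold change -0.88 ± 0.23, edgeR adjusted p 0.0424). The apolipoprotein gene Apoc2, the lipid droplet gene Plin2 and the acyltransferase gene Dgat2 rose (log2 fold changes 2.09, 1.86 and 1.39). Apob, the frame of the chylomicron, overlapped between groups at 7087 and 5558 CPM in WT against 5718 and 9724 CPM (0.29, not called), and Mttp, which loads it, was not called (0.34). Lipid genes called lower numbered 4 without replicate 1 labelled Cdx2-/-. Plb1 (log2 fold change -10.85) lost its call without replicate 1 labelled Cdx2-/-. Cd36 (-5.01 and -4.42) and Fabp1 (2.72 and 3.28) lost their calls without either replicate labelled Cdx2-/-. Apoc2 (1.91) lost its call without WT replicate 2. Plb1 had a log2 fold change of -12.10 without replicate 2 labelled Cdx2-/-, -9.88 without WT replicate 1 and -12.24 without WT replicate 2, and Cd36 of -3.66 without WT replicate 1 and -5.25 without WT replicate 2. Fabp1 had a log2 fold change of 4.02 without WT replicate 1 and 2.42 without WT replicate 2.

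Of 20 tested members of the ion transport list, 4 were called lower and 2 higher, where 12% and 8.41% of all genes were, with a median of 0.01. Car4, the membrane-bound carbonic anhydrase, stood at 407 and 825 CPM in WT and 4.76 and 11.99 CPM in the libraries labelled Cdx2-/- (log2 fold change -6.23 ± 0.66, edgeR adjusted p 0.00523). Aqp4, a water channel, stood at 5.69 and 4.65 CPM in WT and 390.0 and 584 CPM in the libraries labelled Cdx2-/- (log2 fold change 6.56 ± 0.30, edgeR adjusted p 0.00107). The anion exchanger Slc26a6 and the carbonic anhydrases Car12 and Car13 fell (log2 fold changes -3.04, -2.18 and -2.49), while the chloride exchanger Slc26a3 was not called (log2 fold change -0.14 ± 0.23, edgeR adjusted p 0.667). Metal handling had 6 of 18 members called lower and 1 higher (12% and 8.41% of all genes), with a median of -0.64. Slc30a10, a manganese exporter, stood at 69.7 and 66.6 CPM in WT and 1.49 and 0.713 CPM in the libraries labelled Cdx2-/- (log2 fold change -5.86 ± 0.32, edgeR adjusted p 0.00159). The iron exporter Slc40a1, the iron importer Slc11a2 and the vitamin D receptor Vdr also fell (-3.23, -1.37 and -2.08). Fth1, which stores iron, rose (1.35). Car4 had a log2 fold change of -7.001 without replicate 2 labelled Cdx2-/- and -5.64 without WT replicate 2, and Slc26a6 of -3.74 without replicate 2 labelled Cdx2-/-. Slc30a10 had a log2 fold change of -6.53 without replicate 1 labelled Cdx2-/-.

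Of 24 intestinal transcription factors tested, 4 were called lower and 2 higher, where 12% and 8.41% of all genes were, with a median of -0.10. Isx, a homeodomain repressor known for acting on Scarb1, stood at 211 and 128 CPM in WT and 7.78 and 26.5 CPM in the libraries labelled Cdx2-/- (log2 fold change -3.32 ± 0.65, edgeR adjusted p 0.0210). Hnf4g stood at 554 and 324 CPM in WT and 42.9 and 66.7 CPM in the libraries labelled Cdx2-/- (log2 fold change -3.004 ± 0.37, edgeR adjusted p 0.00682), and its paralog Hnf4a at 1018 and 1360.0 CPM in WT and 756 and 907 CPM in the libraries labelled Cdx2-/-, not called (log2 fold change -0.52 ± 0.21, edgeR adjusted p 0.118). Groups did not overlap for either paralog. Maf, an enterocyte factor, fell (log2 fold change -1.39). Foxa1, a pioneer factor, and Elf3, an epithelial ETS factor, rose (1.51 and 1.05). Gata4 was not called (log2 fold change -0.53 ± 0.13, edgeR adjusted p 0.0353), and neither was Klf5 (log2 fold change -0.17). Isx (log2 fold change -2.92) lost its call without WT replicate 1. Hnf4g (-2.69) lost its call without replicate 1 labelled Cdx2-/-. Foxa1 (1.25 and 1.28) lost its call without replicate 1 labelled Cdx2-/- or WT replicate 1. Elf3 (0.997) lost its call without WT replicate 2. Isx had a log2 fold change of -2.64 without replicate 1 labelled Cdx2-/- and -4.44 without replicate 2 labelled Cdx2-/-.

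Of 19 genes of the gastric mucous lineage in the table, 16 were tested, 14 were called higher and 1 lower (8.41% and 12% of all genes). The median was 7.29, or 4.81 with the 11 genes at or under a floor of 3 counts per WT library taken at that floor. A gene that is low in WT passed the filter on low counts only through the other group, so the count among tested genes is a description. Sult1c2, a sulfotransferase, stood at 0.813 and 0.850 CPM in WT and 237 and 273 CPM in the libraries labelled Cdx2-/- (log2 fold change 8.25 ± 0.18, edgeR adjusted p 0.000516). Ctse, the gastric cathepsin E, stood at 0.375 and 0.0567 CPM in WT and 16.98 and 20.3 CPM in the libraries labelled Cdx2-/- (log2 fold change 6.43 ± 0.54, edgeR adjusted p 0.00333). Sult1c2 reached the highest level of those near 0 in WT. Dpcr1, a mucin-like gene, had 2 counts in all of WT and 23.0 and 33.5 CPM in the libraries labelled Cdx2-/-, 452-fold higher (95% exact interval 125 to 3734), an interval of counting error alone. Anxa10, an annexin of gastric mucosa, had 0 counts in WT and was at least 77.2-fold higher, with 4.64 and 23.0 CPM. Such bounds take the group at 0 at 3 counts per library, and a fitted log2 fold change of a gene this low in WT depends on the prior count and is no bound. Cldn18, whose stomach form seals gastric epithelium, was at least 22.9-fold higher, with 1.41 and 6.78 CPM. Gastric mucous genes called higher numbered 7 without replicate 2 labelled Cdx2-/-. Anxa10 (log2 fold change 10.99 and 10.94) lost its call without either WT replicate. Cldn18 (7.77, 9.22 and 9.17) lost its call without either WT replicate or replicate 2 labelled Cdx2-/-. Ctse had a log2 fold change of 8.20 without WT replicate 1 and 5.5999 without WT replicate 2.

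The secreted products of gastric surface and neck cells stayed low. Gkn3, a gastrokine, had 6.21 and 6.49 CPM against 3 counts in either WT library, 35.4-fold higher (95% exact interval 16.02 to 97.4). Gkn1, another gastrokine, had 1.28 and 2.07 CPM against 1 count in all of WT. Tff2, a trefoil peptide of neck cells, had 1.37 and 1.07 CPM against 0 counts, at least 6.81-fold higher. Muc5ac, the surface mucin, had 2 counts in one library labelled Cdx2-/- and 0 in the other 3, and Tff1 had 0 in each. Muc1 differed between the replicates of that group, at 0.870 and 42.9 CPM, and was not called. Capn9, a protease of gastric surface cells, was the member called lower, at 40.1 and 56.7 CPM in WT against 24.1 and 22.3 CPM (log2 fold change -1.06 ± 0.20). Of the acid and protease genes, Atp4a, the catalytic subunit of the proton pump, had 11.6 and 11.7 CPM, 78.2-fold higher (95% exact interval 33.3 to 242), while its partner Atp4b had 1 count at most in each library. Kcnq1 and Mfsd4, also listed with the acid genes but present in WT, rose (log2 fold changes 1.48 and 1.42). Sox2, a foregut factor, had 0 counts in the 4 libraries and Krt5, of squamous epithelium, 1 count at most in each. Gkn1 (log2 fold change 5.81 and 5.16), Tff2 (7.12 and 7.73) and Kcnq1 (1.604 and 1.39) lost their calls without either replicate labelled Cdx2-/-. Capn9 (-1.09, -0.995, -0.79 and -0.94) lost its call without either replicate labelled Cdx2-/- or WT replicate 2 or with all 31 RNA libraries in 1 fit.

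Some of the largest changes were in genes outside the absorptive and gastric lists. The 8 largest called decreases at an average log2 CPM of at least 2 were Gsdmc3, Pla2g4c, Enpp7, Plb1, Gsdmc4, Gm1966, 2410017I17Rik and Adora2b. Pla2g4c, a cytosolic phospholipase, stood at 3274 and 5615 CPM in WT and 0.828 and 0.642 CPM in the libraries labelled Cdx2-/- (log2 fold change -12.52 ± 0.51, edgeR adjusted p 0.000883). Gsdmc4, a gasdermin, stood at 314 and 756 CPM in WT and 0.124 and 0.357 CPM in the libraries labelled Cdx2-/- (log2 fold change -11.25 ± 0.78, edgeR adjusted p 0.00258). Its close copies followed, Gsdmc2 with a log2 fold change of -9.82 and Gsdmc3 with 0 counts in both libraries labelled Cdx2-/-, at least 1183-fold lower. The gasdermin C genes are near-identical copies, so reads could have been shared among them. Adora2b, an adenosine receptor, also had 0 counts in those libraries and was at least 68.1-fold lower. Gm1966 was at least 77.5-fold lower, and the uncharacterised gene 2410017I17Rik at least 71.5-fold lower. Dfna5, a gasdermin of another class, fell less (-2.28). Plb1 (log2 fold change -10.85) lost its call without replicate 1 labelled Cdx2-/-. Plb1 had a log2 fold change of -12.10 without replicate 2 labelled Cdx2-/-, -9.88 without WT replicate 1 and -12.24 without WT replicate 2, and Gsdmc4 of -10.48 without replicate 1 labelled Cdx2-/-, -11.99 without replicate 2 labelled Cdx2-/- and -10.48 without WT replicate 2. Gsdmc2 had a log2 fold change of -8.82 without replicate 1 labelled Cdx2-/-, -11.27 without replicate 2 labelled Cdx2-/- and -9.09 without WT replicate 2.

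The 8 largest increases were Hmga2-ps1, Lcn2, Cfhr2, Ly6d, Anxa10, Scgb3a1, Fam83a and Lrg1. Ly6d, a small membrane-anchored protein, stood at 0.313 and 1.76 CPM in WT and 3924 and 3829 CPM in the libraries labelled Cdx2-/- (log2 fold change 11.83 ± 0.77, edgeR adjusted p 0.00224). Lrg1, a secreted leucine-rich glycoprotein, stood at 1.19 and 0.0567 CPM in WT and 701 and 559 CPM in the libraries labelled Cdx2-/- (log2 fold change 10.01 ± 0.84, edgeR adjusted p 0.00334). Lcn2, an iron-sequestering defence protein, had 0.250 and 0 CPM in WT and 228 and 850.3 in the libraries labelled Cdx2-/- (log2 fold change 12.06 ± 1.24, edgeR adjusted p 0.00497). Within the libraries labelled Cdx2-/-, Ly6d was even between replicates and Lcn2 was not. Fam83a had 1 count in either WT library and 59.8 and 84.8 CPM in the other group, and Scgb3a1, a secretoglobin, had 1 count in all of WT and 46.7 and 76.1 CPM. Cfhr2, related to complement factor H, had 0 counts in WT and was at least 156-fold higher. Hmga2-ps1, a pseudogene of Hmga2 whose reads could belong to a related copy, had 0 counts in WT and was at least 193-fold higher. Anxa10 (log2 fold change 10.99 and 10.94) lost its call without either WT replicate. Lcn2 had a log2 fold change of 12.74 without replicate 1 labelled Cdx2-/-, 10.83 without replicate 2 labelled Cdx2-/-, 16.29 without WT replicate 1 and 11.03 without WT replicate 2, and Ly6d of 11.11 without WT replicate 1 and 13.56 without WT replicate 2. Lrg1 had a log2 fold change of 13.28 without WT replicate 1 and 9.04 without WT replicate 2.

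Genes of fatty acid oxidation and targets of the PPAR receptors were called higher in 13 of 25 and lower in 2 (8.41% and 12% of all genes), with a median of 1.01. Pdk4, a kinase that turns cells from glucose to fat oxidation, stood at 1.501 and 0.0567 CPM in WT and 501 and 395 CPM in the libraries labelled Cdx2-/- (log2 fold change 9.20 ± 0.90, edgeR adjusted p 0.00454). The groups were far apart for this gene. Angptl4, a lipase inhibitor, had 106 and 10.4 CPM in WT and 1627 and 1425 CPM in the other group (log2 fold change 4.72 ± 1.14, edgeR adjusted p 0.0349). Cpt1a, which moves fatty acids into mitochondria, rose as well (1.498). Ppargc1a, a coactivator of the same programme, fell from 92.6 and 77.3 CPM to 2.65 and 2.85 (log2 fold change -4.95 ± 0.17, edgeR adjusted p 0.000718). Acadm, Acadvl and Slc25a20, steps of the same pathway, were not called (log2 fold changes 0.20, 0.03 and 0.21). How far the treatment itself moved these genes was not tested. Genes of this list called higher numbered 5 without replicate 1 labelled Cdx2-/- and 6 without replicate 2 labelled Cdx2-/-. Angptl4 (log2 fold change 4.64 and 4.81) lost its call without either replicate labelled Cdx2-/-. Pdk4 had a log2 fold change of 12.79 without WT replicate 1 and 8.21 without WT replicate 2, and Angptl4 of 7.197 without WT replicate 1 and 3.84 without WT replicate 2.

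Of 23 cytochrome P450 genes, 8 were called lower and 3 higher (12% and 8.41% of all genes). The 3 were Cyp2d9, Cyp2d10 and Cyp2d34, close paralogs, of which Cyp2d9, with 1 count in all of WT, was 1223-fold higher (95% exact interval 219 to 48336). The log2 fold changes of Cyp2d10 and Cyp2d34 were 8.16 and 7.15. Cyp2d10 stood at 0.188 and 0.397 CPM in WT and 71.8 and 102 CPM in the libraries labelled Cdx2-/-. Cyp2u1 and Cyp4v3 fell (log2 fold changes -5.18 and -4.30). Cyp2b10 and Cyp2c55, which xenobiotics induce, differed within WT, at 226 and 5.27 CPM for Cyp2b10, and were not called. Cyp3a11 was at 169.6 and 385 CPM in the libraries labelled Cdx2-/-, between the WT values given above. Among 31 conjugating enzymes and carboxylesterases, 10 were called lower and 6 higher (12% and 8.41% of all genes). Gsta4, a glutathione transferase, stood at 16.01 and 7.88 CPM in WT and 947 and 982 CPM in the libraries labelled Cdx2-/- (log2 fold change 6.34 ± 0.42, edgeR adjusted p 0.00227), and Gsta1 rose as well (5.21). Sult2b1, a sulfotransferase for sterols, fell (-2.68). P450 genes called lower numbered 5 without replicate 1 labelled Cdx2-/-. P450 genes called higher numbered 7 without WT replicate 1. Conjugating enzymes called lower numbered 4 without replicate 1 labelled Cdx2-/-. Cyp2d10 had a log2 fold change of 8.80 without WT replicate 2, and Cyp2d34 of 6.23 without WT replicate 1 and 12.96 without WT replicate 2. Gsta4 had a log2 fold change of 6.94 without WT replicate 1, and Gsta1 of 5.90 without WT replicate 1.

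**Figure D3:**
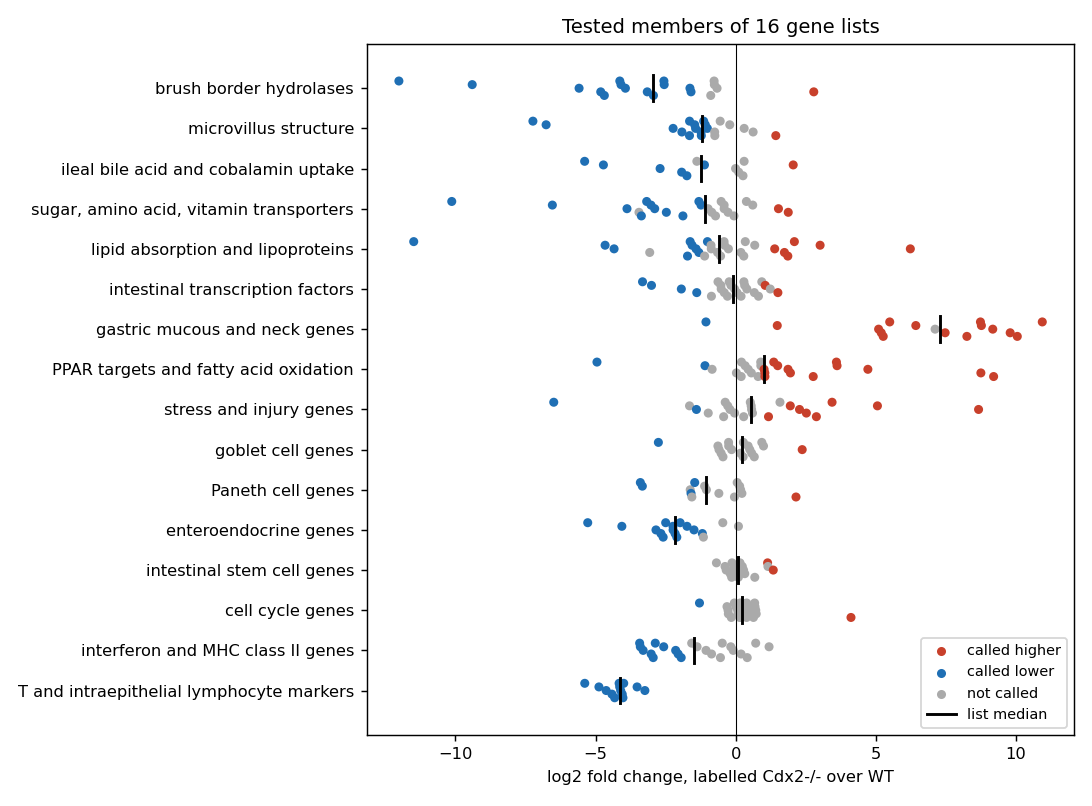
Log2 fold change of the libraries labelled Cdx2-/- over WT (x axis) for each tested member of 16 gene lists (y axis). Red points were called higher, blue called lower and grey not called, and black bars are list medians, such as -2.93 for brush border hydrolases and 7.29 for gastric mucous genes.

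Of 17 enteroendocrine genes tested, 14 were called lower and 0 higher (12% and 8.41% of all genes), with a median of -2.16. Nts, the neurotensin gene of ileal cells, stood at 97.8 and 64.2 CPM in WT and 2.03 and 2.14 CPM in the libraries labelled Cdx2-/- (log2 fold change -5.28 ± 0.29, edgeR adjusted p 0.00155). Chga, or chromogranin A, stood at 81.2 and 50.5 CPM in WT and 12.2 and 8.35 CPM in the libraries labelled Cdx2-/- (log2 fold change -2.67 ± 0.32, edgeR adjusted p 0.00663). Gcg, the proglucagon gene, was not called (-0.46). Of 18 goblet cell genes, 1 was called lower and 1 higher, where 12% and 8.41% of all genes were. Clca3, a calcium-activated protein of goblet cells, fell from 7028 and 9383 CPM to 1399.6 and 1025 (log2 fold change -2.76 ± 0.28, edgeR adjusted p 0.00498), and Ccl9, a chemokine, rose (2.37). Muc2, the main secreted mucin, stood at 1986 and 1859.9 CPM in WT and 1298 and 1180.3 CPM in the libraries labelled Cdx2-/- and was not called (log2 fold change -0.63 ± 0.15, edgeR adjusted p 0.0354), nor were the trefoil gene Tff3 and the lineage factor gene Spdef (-0.25 and 0.26). Enteroendocrine genes called lower numbered 3 without replicate 1 labelled Cdx2-/-, 3 without replicate 2 labelled Cdx2-/-, 8 without WT replicate 1 and 9 without WT replicate 2.

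Of 15 Paneth cell genes, 4 were called lower and 1 higher (12% and 8.41% of all genes). Ang4 and Lyz1, antimicrobial products, fell (log2 fold changes -3.40 and -1.59), and Mmp7, which activates defensins, rose (2.15). Most defensin genes were not called, and their reads can be shared among near-identical copies. Of 13 tuft cell genes, 1 was called lower and 0 higher (12% and 8.41% of all genes), and this was Ltc4s (-2.08). Dclk1 varied more within groups than between them, at 39.1 and 117 CPM in WT against 65.6 and 29.3 CPM. Of 18 stem cell genes, 2 were called higher and 0 lower, where 8.41% and 12% of all genes were. Olfm4 and Prom1 rose (1.14 and 1.34), and Lgr5 stood at 5.19 and 9.41 CPM in WT and 8.07 and 5.07 CPM in the libraries labelled Cdx2-/-, not called (log2 fold change -0.14 ± 0.40, edgeR adjusted p 0.798). Of 30 cell cycle genes, 1 was called higher and 1 lower (8.41% and 12% of all genes), with a median of 0.21. Mki67 stood at 87.6 and 95.3 CPM in WT and 162 and 122 CPM in the libraries labelled Cdx2-/-, apart between groups but below the fold minimum for a call (log2 fold change 0.63 ± 0.17, edgeR adjusted p 0.0477). Rrm2, a ribonucleotide reductase subunit, rose from 9.32 and 9.92 CPM to 128.9 and 205 (log2 fold change 4.11 ± 0.28, edgeR adjusted p 0.00241), and the cyclin gene Ccnd1 fell (-1.29). Paneth cell genes called lower numbered 2 without replicate 1 labelled Cdx2-/-. Lyz1 (log2 fold change -1.47) lost its call with all 31 RNA libraries in 1 fit. Ltc4s (-2.67, -1.69 and -1.32) and Ccnd1 (-0.97, -1.62 and -0.96) lost their calls without either replicate labelled Cdx2-/- or WT replicate 2. Olfm4 (0.90 and 1.05) lost its call without replicate 2 labelled Cdx2-/- or WT replicate 1.

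Of 23 genes of stress and epithelial injury, 8 were called higher and 2 lower (8.41% and 12% of all genes). Anxa1, an annexin of regenerating epithelium, had 5 counts in all of WT and 64.9 and 61.3 CPM in the libraries labelled Cdx2-/-, 428-fold higher (95% exact interval 183 to 1318). Sprr1a, a cornified envelope protein, Clu, or clusterin, and Ly6a rose (log2 fold changes 5.06, 3.44 and 2.52), and Ereg, a growth factor, fell (-6.49). Of 20 antimicrobial and acute phase genes, 6 were called higher and 1 lower (8.41% and 12% of all genes). The chemokine gene Cxcl1 had 2 counts in all of WT and 10.8 and 33.2 CPM in the other group, and Lypd8, which keeps bacteria off the epithelium, rose from 2436 and 1613 CPM to 20293 and 15963. Reg3b ranged from 3565 to 26613 CPM within the libraries labelled Cdx2-/- and was not called. Krt19 and Krt7, keratins of simple epithelium, rose (2.36 and 1.81), as did Cldn2, a claudin of leaky epithelium, and the gap junction gene Gjb1 (2.03 and 2.96). Cldn25, another claudin, fell (-1.64). Stress and injury genes called higher numbered 5 without replicate 1 labelled Cdx2-/- and 4 without replicate 2 labelled Cdx2-/-. Antimicrobial genes called higher numbered 3 without replicate 2 labelled Cdx2-/-. Sprr1a had a log2 fold change of 4.43 without WT replicate 1 and 6.27 without WT replicate 2.

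Markers of intraepithelial lymphocytes fell with the same sign throughout. Of 13 T cell and intraepithelial lymphocyte markers, 13 were called lower (12% of all genes), with a median of -4.14. Their summed level was 164 and 290.3 CPM in WT and 9.65 and 20.05 in the libraries labelled Cdx2-/-, and none was at 0 counts in both of those libraries. Gzmb, a granzyme, stood at 33.4 and 37.6 CPM in WT and 0.870 and 1.64 CPM in the libraries labelled Cdx2-/- (log2 fold change -4.88 ± 0.32, edgeR adjusted p 0.00227). Cd3e, part of the T cell receptor complex, stood at 4.19 and 6.46 CPM in WT and 0.166 and 0.357 CPM in the libraries labelled Cdx2-/- (log2 fold change -4.42 ± 0.52, edgeR adjusted p 0.00628). Of 22 interferon and MHC class II genes, 10 were called lower and 0 higher (12% and 8.41% of all genes). H2-Aa stood at 279 and 1188 CPM in WT and 73.5 and 65.1 CPM in the libraries labelled Cdx2-/- (log2 fold change -3.40 ± 0.73, edgeR adjusted p 0.0260), and H2-Eb1, Cd74 and the transactivator Ciita moved with it (-3.02, -2.14 and -2.94). In each of these 4 genes WT replicate 2 was above WT replicate 1. The part of the lymphocyte difference in these genes was not tested. Of the other cell types listed, myeloid markers summed over 12 genes had 15.5 and 19.6 CPM in WT and 4.72 and 3.85 CPM in the other group. Mesenchyme and muscle markers, 15 genes, summed to 16.4 and 18.5 CPM against 7.25 and 7.92, and globin genes had 0 counts. Lymphocyte markers called lower numbered 7 without replicate 1 labelled Cdx2-/-. Interferon and MHC class II genes called lower numbered 2 without replicate 1 labelled Cdx2-/- and 6 without replicate 2 labelled Cdx2-/-. H2-Aa (log2 fold change -3.46 and -3.30), H2-Eb1 (-2.95 and -3.04), Cd74 (-2.11 and -2.13) and Ciita (-2.80 and -3.03) lost their calls without either replicate labelled Cdx2-/-. H2-Aa had a log2 fold change of -4.09 without WT replicate 1 and -2.01 without WT replicate 2, and H2-Eb1 of -2.08 without WT replicate 2. Cd74 had a log2 fold change of -2.75 without WT replicate 1 and -1.05 without WT replicate 2, and Ciita of -3.67 without WT replicate 1 and -1.37 without WT replicate 2.

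Lyve1 and Ret were the markers called higher among the endothelial and the neural lists. Lyve1, a hyaluronan receptor known from lymphatic vessels, stood at 2.44 and 3.69 CPM in WT and 1299 and 1123 CPM in the libraries labelled Cdx2-/- (log2 fold change 8.62 ± 0.30, edgeR adjusted p 0.000718). Of 8 endothelial markers 4 were tested and the other 3 of these were not called, while Kdr had 0 counts and Cdh5 2 counts at most in each library. Prox1, the lymphatic factor, stood at 1.69 and 5.78 CPM in WT against 5.67 and 4.14 CPM and was not called. Ret, a receptor kinase known from enteric neurons, stood at 10.6 and 4.88 CPM in WT and 224 and 329 CPM in the libraries labelled Cdx2-/- (log2 fold change 5.16 ± 0.47, edgeR adjusted p 0.00390), while the other 8 neural and glial markers were too low to be tested. Ret had a log2 fold change of 5.83 without WT replicate 1.

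The adult effect was set beside that of libraries labelled deleted at E15. The libraries compared were E18 small intestine labelled deleted at E15, from Cdx2f/f; Villin-Cre mice on the B6;129 mixed background whose labels give 5 mg of tamoxifen by gavage, and untreated WT E18 small intestine of strain CD1. They share no library with the adult comparison. Cdx2 went against this label as well, at 138 and 142 CPM in E18 WT and 260.3 and 249 CPM in the libraries labelled deleted at E15 (log2 fold change 0.86 ± 0.08, edgeR adjusted p 0.000133), under the fold minimum. The E18 groups differ in strain, were made with another library kit (SMARTer v4, against TruSeq in the adult) and cover small intestine rather than ileum villus, and none of these can be told apart from the difference in age. Their replicates were nearly alike, with a chi-square per degree of freedom of 1.499 and 4.797, so the error of the E18 effect may be technical alone. A fit of all 8 libraries takes 1 spread per gene from adult and E18 libraries together. Errors and adjusted p of the adult effect and of the difference may therefore be too small in it. In 1 fit of the 8 libraries over 13464 genes, 1931 genes (14.3%) differed between the effects, 989 (7.35%) higher in the adult and 942 (7%) lower. In that fit 2013 genes (15%) were lower in the adult and 2211 (16.4%) at E18. The 1214 shared genes were 60.3% of the adult list and 54.9% of the E18 list, and 36 genes lower in the adult (1.79%) were called higher at E18. Of the higher genes, 1273 (9.45%) and 1453 (10.8%), 533 were shared, or 41.9% and 36.7%, while 73 genes higher in the adult (5.73%) were called lower at E18.

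Sis and Enpp7 fell in both settings and the difference was not called. The log2 fold change of Sis was -5.598 in the adult and -6.39 at E18 (difference 0.79 ± 0.33, edgeR adjusted p 0.119). That of Enpp7 was -12.05 in the adult and -11.14 at E18 (difference -0.91 ± 0.86, edgeR adjusted p 0.469). Sult1c2, at 8.24 in the adult and 8.35 at E18, Gkn3 and Akp3 rose in both, and their differences were not called. Alpi was another matter. Its log2 fold change was -4.11 in the adult and 0.18 at E18 (difference -4.29 ± 0.15, edgeR adjusted p 4.31e-05). Hnf4g fell in both and more in the adult, with -3.02 in the adult and -1.22 at E18 (difference -1.80 ± 0.40, edgeR adjusted p 0.0174). Fabp1 had values of 2.996 in the adult and -0.61 at E18 (difference 3.61 ± 0.64, edgeR adjusted p 0.00787). Car4 fell in both and more at E18, with -6.26 in the adult and -9.80 at E18 (difference 3.54 ± 0.88, edgeR adjusted p 0.0253). Slc10a2 and Muc2 also differed between the settings. Fabp6 was under 1 CPM in each E18 library, and its difference was not called (difference -4.65 ± 1.52, edgeR adjusted p 0.0624). Hnf4g (difference -1.80, -1.81, -1.94 and -1.78) and Car4 (3.57, 3.53, 3.02 and 4.46) lost their calls without either E15-deleted replicate or either E18 WT replicate. Fabp1 (3.53 and 3.55) lost its call without either E15-deleted replicate. Slc10a2 (-2.25 and -2.19) lost its call without E18 WT replicate 2 or with all 31 RNA libraries in 1 fit. Muc2 (-0.97, -0.97, -0.95, -0.95 and -0.89) lost its call without replicate 2 labelled Cdx2-/- or WT replicate 1 or with RLE scaling or with DESeq2 or with all 31 RNA libraries in 1 fit. Fabp1 had a difference of 4.59 without WT replicate 1 and 3.01 without WT replicate 2, and Car4 of 2.74 without replicate 2 labelled Cdx2-/-.

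Pdk4, Rab30, Ly6d and gasdermins were among the genes with the largest differences between the settings. Pdk4 had log2 fold changes of 9.20 in the adult and -0.97 at E18 (difference 10.16 ± 0.72, edgeR adjusted p 0.000284). Scaled over the 8 libraries, it stood at 358 and 354 CPM in E18 WT and at 1.65 and 0.0626 CPM in adult WT. Rab30, a small GTPase gene, moved in opposite directions, with 6.23 in the adult and -3.87 at E18 (difference 10.10 ± 0.58, edgeR adjusted p 0.000144). Ly6d had 11.81 in the adult and -0.39 at E18 (difference 12.21 ± 1.14, edgeR adjusted p 0.000779). Pla2g4c was low in E18 WT, at 2.11 and 1.85 CPM, and its values were -12.53 in the adult and -1.24 at E18. Those of Gsdmc4 were -11.29 in the adult and -2.26 at E18. Lyve1, chosen after its values were seen, rose in both, with 8.60 in the adult and 2.61 at E18 (difference 5.99 ± 0.25, edgeR adjusted p 5.87e-05). Over all genes of that fit the difference was called higher in the adult in 7.35% and lower in 7%. Among lists of at least 10 tested genes, the share called higher in the adult was greatest for villus tip genes (8 of 12), fatty acid oxidation (11 of 25), lipid absorption (12 of 28), stress and injury (9 of 23) and brush border hydrolases (7 of 20). The share called lower was greatest for Paneth cell (9 of 15) and stem cell genes (8 of 18), and then membrane mucins and gasdermins (4 of 11) and goblet cell genes (6 of 18). These are counts of differences, not of adult changes. Stem cell genes had 3 called higher and 0 lower in the adult, and 12 and 0 at E18. Goblet cell genes had 1 and 1 in the adult and 7 and 0 at E18. Paneth cell genes had 1 and 7 in the adult and 10 and 3 at E18. Brush border hydrolases had 1 called higher and 14 lower in the adult, and 1 and 18 at E18. Pdk4 had a difference of 13.77 without WT replicate 1 and 9.16 without WT replicate 2, and Rab30 of 11.17 without WT replicate 1 and 9.46 without WT replicate 2. Ly6d had a difference of 11.46 without WT replicate 1 and 13.94 without WT replicate 2, and Gsdmc4 of -8.27 without replicate 1 labelled Cdx2-/-, -9.80 without replicate 2 labelled Cdx2-/- and -8.27 without WT replicate 2.

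**Figure D4:**
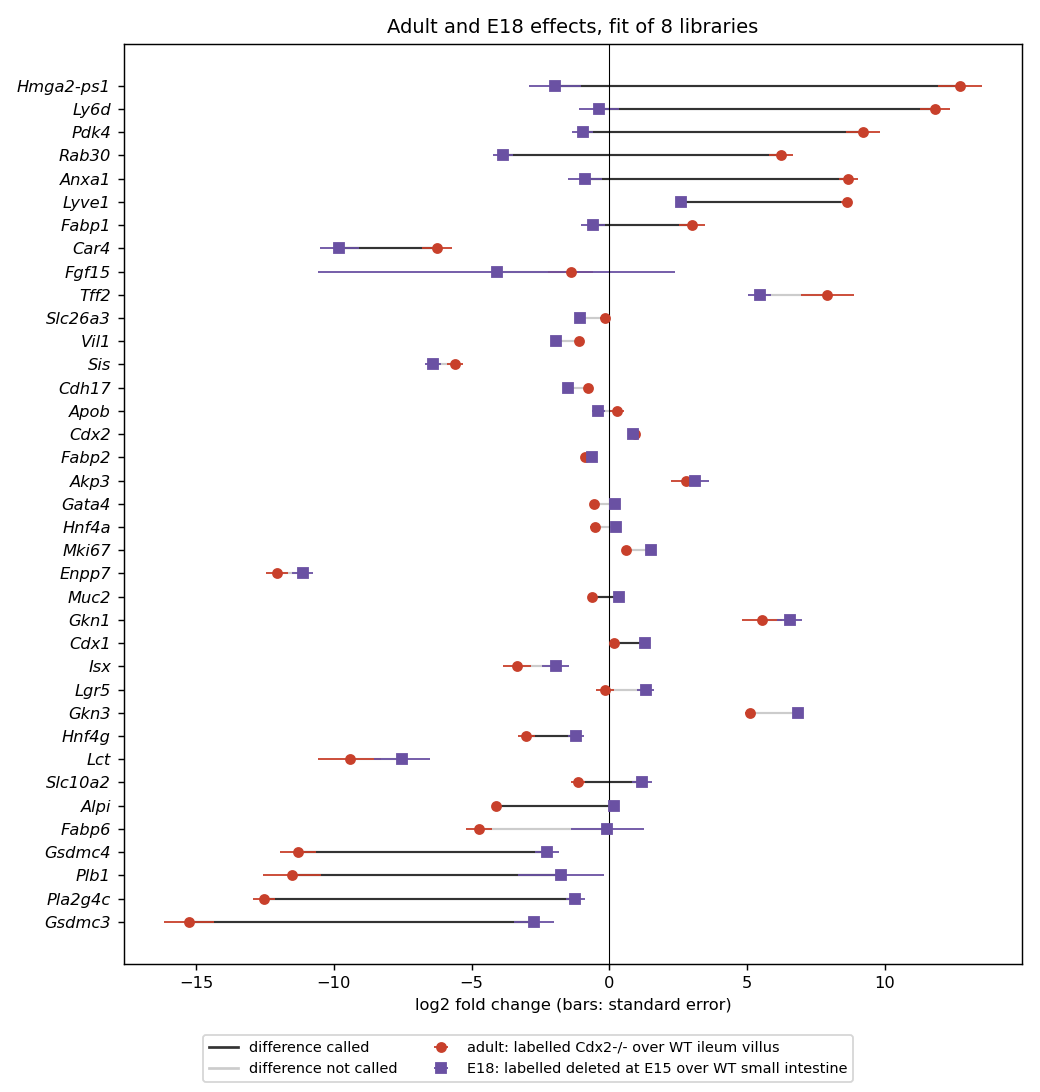
Log2 fold changes (x axis, bars are standard errors) of the adult comparison (red circles) and of the E18 comparison of libraries labelled deleted at E15 (purple squares) for 37 genes (y axis), from 1 fit of 8 libraries. Dark lines join the pairs whose difference was called, such as Alpi at -4.11 and 0.18, and Cldn18, at 0 counts in both WT groups, is left out.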

How the data were processed

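The authors deposited 1 table of raw counts per gene, with a row per symbol and a column per RNA library. Bowtie2, STAR 2.5.3a, MACS2 and HTSeq are named, with build mm9, per the submitters' processing notes, with no role or order; the annotation and the strand setting are not given in the sources used here, so overlapping and antisense genes can share reads. Each adult column held 2 blank cells, at Stk33 and Txndc2, below which its counts sat 1 and then 2 rows too low. Over the 1677 genes between the blanks, Spearman correlations of the adult libraries with E18 WT were 0.280 to 0.295 as deposited and 0.929 to 0.962 once the blanks were closed up; over the 1730 below the second they went from 0.471 to 0.493 up to 0.956 to 0.974. Another 2 columns match no sample as used here and were left out. Of 24015 symbols, 23896 were found in the reference name tables.

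Genes were kept by filterByExpr (minimum count 10), scaled by TMM and tested with edgeR 4.0.16 in R 4.3.3 (glmQLFit and glmQLFTest, Benjamini-Hochberg adjustment over all genes tested), and a call needed an adjusted p below 0.05 and a log2 fold change of at least 1. The adult fit had 2 residual degrees of freedom. The difference between the adult and E18 effects was an interaction contrast. DESeq2 1.42.0, other scalings, filters, sets of libraries, a replicate block and leaving out each library were tried. In simulated data of the adult design over 12235 genes, 12 of 67 changed 2-fold, 55 of 67 changed 4-fold and 64 of 66 changed 8-fold were called, with 17 false calls; for the difference over 13106 genes they were 14 of 67, 52 of 67 and 57 of 66, with 6 false calls. Intervals and floors cover counting error only. Promoter windows are RefSeq sequences on GRCm38.p6, not the build of the counts.

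The gene lists, the comparison and its members were chosen with earlier results of these data known. Named genes were Cdx2, the core genes, called list members with the largest changes, non-overlapping groups and an average log2 CPM of at least 2, the 8 largest changes in each direction, and the 4 largest differences in each direction; list members named for other reasons, and genes in no list, were chosen after their values were seen. Some genes are not reported here.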

Additional observations from a re-analysis of the deposited data

Results flagged for a closer look

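The adult effect differed from that of libraries labelled deleted at E15, by the interaction contrast of edgeR, in each of the following genes; strain, library kit and tissue differ with age, as given above, and cannot be told apart. Among core genes the difference, adult minus E18 on the log2 scale, was -1.10 for Cdx1, -1.80 for Hnf4g, -4.29 for Alpi, -2.31 for Slc10a2, -1.01 for Muc2, 3.61 for Fabp1 and 3.54 for Car4. Cdx1 had 0.18 in the adult and 1.27 at E18. The largest differences upward were 14.67 for Hmga2-ps1, 12.21 for Ly6d, 10.16 for Pdk4 and 10.10 for Rab30, and the largest downward -12.51 for Gsdmc3, -11.29 for Pla2g4c, -9.76 for Plb1 and -9.03 for Gsdmc4. Anxa1 and Lyve1, chosen after their values were seen, differed by 9.57 and 5.99. For Hmga2-ps1, Gsdmc3 and Anxa1, with 0 or few counts in some groups, the fitted difference depends on the prior count and is no bound. Plb1 was low in E18 WT too, at 0.455 and 0.640 CPM against 0.139 and 0.180 CPM in the libraries labelled deleted at E15, from 4 to 17 counts a library.

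Cdx1 (difference -0.98) lost its call with all 31 RNA libraries in 1 fit. Plb1 (-9.12, -10.39, -9.57, -10.06, -9.97 and -9.60) lost its call without either replicate labelled Cdx2-/- or either E15-deleted replicate or either E18 WT replicate. Plb1 had a difference of -8.18 without WT replicate 1 and -10.52 without WT replicate 2. Anxa1 had a difference of 8.88 without E15-deleted replicate 1 and 11.3 without E15-deleted replicate 2. Hmga2-ps1 had a difference of 18.05 without E15-deleted replicate 1 and 13.28 without E15-deleted replicate 2, and Gsdmc3 of -11.91 without WT replicate 2.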

How the results depend on the processing

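The number of genes called in the adult comparison was 2541 with RLE scaling, 2658 with DESeq2, 2675 without a filter on low counts, 2131 with a stricter filter and 3286 with the E18 libraries in the fit. Without a fold minimum it was 4298 (2021 higher and 2277 lower), and for the difference 3499 (1651 and 1848), since that threshold also removes small changes. With all 31 RNA libraries, 2709 adult genes were called, 2048 of them among the 2544, and 1151 differences, of which 447 were lower in the adult; the cause was not tested. Leaving out 1 library gave 1254 to 2055 adult calls (617 to 879 higher, 637 to 1204 lower) and 1141 to 2311 differences (554 to 1134 higher, 545 to 1177 lower).

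Replicate numbers did not pair the libraries: deviations from the group means of replicates 1 correlated at -0.17 over 12444 genes. A replicate block gave 2340 adult calls (972 higher, 1368 lower) and 1575 differences (832 and 743), and the crossed pairing, added after seeing the data, gave 2582 (1059 and 1523). Under the block the calls of Cd74, Hoxb8 and Ltc4s and the difference of Hnf4g were lost (values -1.90, 2.03, -1.998 and -1.78), and under the crossed pairing the calls of Ccnd1 and Ciita were lost.

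Sign changes under an alternative touched genes that were not called. Over leave-one-out fits the log2 fold change ran from -0.14 to 0.65 for Apob, -4.09 to 1.34 for Cyp2b10, -0.99 to 4.87 for Cyp3a11, -1.38 to 0.28 for Dclk1, -2.77 to 0.053 for Fgf15, -0.50 to 0.35 for Lgr5, -0.22 to 1.54 for Prox1, -1.28 to 1.90 for Reg3b, -0.40 to 0.18 for Slc26a3 and -3.23 to 0.038 for Slc2a5, and the difference of Enpp7 from -1.57 to 0.63. Cyp3a11 was also 0.027 without a filter, 0.10 with all libraries and 1.74 and 1.73 under the blocks; the cause was not tested. Muc1 was called higher with DESeq2 (7.17), without a filter (7.14), with all libraries (7.24), under both blocks and without replicate 1 labelled Cdx2-/- (8.13). Other calls were gained by Cyp2b10 with all libraries (-2.98) and without WT replicate 2 (-4.09), by Cyp2c55 with all libraries (-4.15), by Slc2a5 without replicate 2 labelled Cdx2-/- (-3.23), by the difference of Sis without replicate 1 so labelled (1.11), and by Cyp2c55 and Fgf15 under the crossed pairing. Leave-one-out values of Cyp2c55 ran from -8.38 to -0.35. In the simulated data, with 2 libraries per group, 2-fold changes were mostly missed. A change of that size lies at the fold minimum of a call, so part of them would be missed with any number of libraries. A gene that was not called may still have changed.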

Other observations

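Of 22 tested ligands, receptors and responders of the Hedgehog, BMP, Wnt and Notch pathways, 7 were called lower and 3 higher, where 12% and 8.41% of all genes were (median -0.30). Ihh, the Hedgehog ligand of villus epithelium, stood at 94.7 and 95.1 CPM in WT and 15.3 and 32.7 CPM in the libraries labelled Cdx2-/- (log2 fold change -1.99 ± 0.37, edgeR adjusted p 0.0190). Bmp3 and Bmp8b, ligands of the BMP family, and Bmp1, a procollagen protease, fell (log2 fold changes -5.17, -4.28 and -3.96). Wnt11, a Wnt ligand, stood at 0.438 and 0.340 CPM in WT and 33.4 and 46.5 CPM in the libraries labelled Cdx2-/- (log2 fold change 6.66 ± 0.31, edgeR adjusted p 0.00107). Both groups were apart for each of these genes. Bmp2, a ligand of the villus, rose (1.65). Signal genes called lower numbered 4 without replicate 1 labelled Cdx2-/-. Signal genes called higher numbered 1 without replicate 1 labelled Cdx2-/-. Ihh (log2 fold change -1.99 and -1.996) lost its call without either WT replicate. Bmp2 (1.90 and 1.41) lost its call without either replicate labelled Cdx2-/-. Ihh had a log2 fold change of -2.62 without replicate 2 labelled Cdx2-/-, and Bmp2 of 2.27 without WT replicate 2.

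Of 28 nuclear receptors other than the Hnf4 genes, 5 were called lower and 3 higher, where 12% and 8.41% of all genes were. Nr1d1, a repressor of the circadian clock, stood at 198 and 230.0 CPM in WT and 62.6 and 54.3 CPM in the libraries labelled Cdx2-/- (log2 fold change -1.87 ± 0.15, edgeR adjusted p 0.00309), and its partner Nr1d2 moved with it (-1.18). Esrra, a regulator of oxidative metabolism, fell (-1.16). The time of day at which tissue was taken is not given in the labels. Nr3c1, the glucocorticoid receptor, was not called (-0.18). Hox genes stayed low, and of 7 tested 3 were called higher and 1 lower (8.41% and 12% of all genes). Genes this low can pass the filter on low counts through 1 group alone, so these counts are a description. Those called higher were Hoxb9, Hoxb7 and Hoxb8, with Hoxb9 at 2.31 and 5.95 CPM in WT and 25.8 and 17.3 CPM in the libraries labelled Cdx2-/- (log2 fold change 2.38 ± 0.49, edgeR adjusted p 0.0233). Hoxa3 went the other way, with 46 counts in all of WT and 1 in the libraries labelled Cdx2-/-. Nuclear receptors called higher numbered 1 without replicate 1 labelled Cdx2-/- and 0 without replicate 2 labelled Cdx2-/-. Hox genes called higher numbered 0 without replicate 1 labelled Cdx2-/-, 0 without replicate 2 labelled Cdx2-/- and 1 without WT replicate 1. Hoxb9 (log2 fold change 2.09 and 2.64) lost its call without either replicate labelled Cdx2-/-. Hoxb7 (1.92, 2.48 and 1.87) lost its call without either replicate labelled Cdx2-/- or WT replicate 1. Hoxb8 (1.64, 2.36, 1.67, 2.57 and 2.17) lost its call without either replicate labelled Cdx2-/- or either WT replicate or with all 31 RNA libraries in 1 fit. Hoxb9 had a log2 fold change of 3.22 without WT replicate 2.

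Of 21 tested cholesterol synthesis genes, 3 were called higher, where 8.41% of all genes were, and 0 lower (median 0.93). Idi1, an isomerase of the pathway, stood at 69.1 and 90.2 CPM in WT and 163 and 305 CPM in the libraries labelled Cdx2-/- (log2 fold change 1.56 ± 0.34, edgeR adjusted p 0.0274), and Acat2 and Cyp51 rose as well (log2 fold changes 1.498 and 1.34). With all 31 RNA libraries in 1 fit 11 were called higher, and with DESeq2 6. Replicate 2 of the libraries labelled Cdx2-/- was the highest library for each of these genes. Cholesterol synthesis genes called higher numbered 7 without replicate 1 labelled Cdx2-/-, 1 without replicate 2 labelled Cdx2-/-, 1 without WT replicate 1 and 1 without WT replicate 2. Idi1 (log2 fold change 1.05, 1.38 and 1.76) and Cyp51 (0.95, 1.17 and 1.54) lost their calls without either WT replicate or replicate 2 labelled Cdx2-/-.

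Of 12 genes known from the villus tip, 4 were called higher and 1 lower (8.41% and 12% of all genes). Apoa4, an apolipoprotein of the upper villus, stood at 4456 and 2787 CPM in WT and 10719 and 13453 CPM in the libraries labelled Cdx2-/- (log2 fold change 1.74 ± 0.32, edgeR adjusted p 0.0184), and Nt5e, which makes adenosine, fell (-1.63). Among membrane mucins Muc13 rose (1.503), while the gasdermin gene Gsdmd fell (-1.03). Of 21 junction genes, 5 were called higher and 3 lower (8.41% and 12% of all genes). Cldn15, which forms sodium channels between enterocytes, stood at 808 and 632 CPM in WT and 183 and 287 CPM in the libraries labelled Cdx2-/- (log2 fold change -1.62 ± 0.27, edgeR adjusted p 0.0147), and Cldn8, a sealing claudin of the distal gut, rose (2.48). Of 10 tested genes of colon and distal gut, 5 were called lower and 0 higher (12% and 8.41% of all genes), 3 of them gasdermin C genes. Mettl7b, a methyltransferase-like gene, was another, at 61.7 and 64.6 CPM in WT and 7.87 and 8.85 CPM in the libraries labelled Cdx2-/- (log2 fold change -2.92 ± 0.14, edgeR adjusted p 0.00113). In the foregut and squamous list Serpinb5, a serpin of squamous epithelium, stood at 8.63 and 8.67 CPM in WT and 115 and 107 CPM in the libraries labelled Cdx2-/- (log2 fold change 3.68 ± 0.13, edgeR adjusted p 0.000718), and 11 of 15 were too low to be tested. Of 12 pancreatic acinar markers 3 were tested, and 2 were called higher and 1 lower (8.41% and 12% of all genes), with a median of 1.77. Clps, or colipase, was the member called lower (-1.83). Ctrb1, another of these markers, rose from 2 counts in all of WT to 797 summed over the libraries labelled Cdx2-/-. Of 9 B and plasma cell markers 1 was tested and not called. Junction genes called higher numbered 3 without replicate 2 labelled Cdx2-/- and 3 without WT replicate 1. Junction genes called lower numbered 1 without replicate 1 labelled Cdx2-/-. Apoa4 (log2 fold change 1.92, 1.57 and 1.43) lost its call without either replicate labelled Cdx2-/- or WT replicate 2. Nt5e (-1.96, -1.34, -1.23 and -1.51) lost its call without either replicate labelled Cdx2-/- or WT replicate 1 or with all 31 RNA libraries in 1 fit. Muc13 (1.65, 1.39, 1.28 and 1.63) lost its call without either replicate labelled Cdx2-/- or WT replicate 2 or with all 31 RNA libraries in 1 fit. Gsdmd (-0.80, -1.01 and -0.91) lost its call without replicate 1 labelled Cdx2-/- or WT replicate 2 or with all 31 RNA libraries in 1 fit. Cldn15 (-1.30) lost its call without replicate 1 labelled Cdx2-/-. Clps (-1.65 and -1.98) lost its call without either replicate labelled Cdx2-/-. Clps had a log2 fold change of -1.05 without WT replicate 2.

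Several genes in no list stood out and were chosen after their values were seen. Bcmo1, which cleaves beta-carotene and is known, like Scarb1, as a gene that Isx represses, stood at 2.31 and 3.005 CPM in WT and 257 and 263 CPM in the libraries labelled Cdx2-/- (log2 fold change 6.60 ± 0.19, edgeR adjusted p 0.000604). Dmbt1, a mucosal defence protein, stood at 1026 and 748 CPM in WT and 25472 and 31559 CPM in the libraries labelled Cdx2-/- (log2 fold change 5.01 ± 0.34, edgeR adjusted p 0.00243). Slc5a8, a carrier of short-chain monocarboxylates, stood at 424 and 415 CPM in WT and 0.166 and 0.642 CPM in the libraries labelled Cdx2-/- (log2 fold change -10.19 ± 0.47, edgeR adjusted p 0.00107). Fkbp5, a gene that glucocorticoids induce, differed within WT, at 157 and 17.5 CPM in WT and 1148 and 1212 CPM in the libraries labelled Cdx2-/- (log2 fold change 3.76 ± 1.05, edgeR adjusted p 0.0493). Whether stress, feeding or treatment moved it was not tested. Fkbp5 (log2 fold change 3.83, 3.73 and 3.75) lost its call without either replicate labelled Cdx2-/- or with RLE scaling. Slc5a8 had a log2 fold change of -9.30 without replicate 1 labelled Cdx2-/- and -11.24 without replicate 2 labelled Cdx2-/-, and Fkbp5 of 6.08 without WT replicate 1 and 2.91 without WT replicate 2.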
